A study of Mus musculus with 36 samples.

Results

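The effect of repeated Cpd-60 dosing on transcripts of the mouse prefrontal cortex (PFC) was measured on 6 Illumina MouseWG-6 arrays. They were chosen by their labels, as the 3 PFC arrays labelled Cpd60 45mg/kg and the 3 PFC arrays labelled Vehicle, and they are 6 of the 36 arrays of the study. The study dosed mice with vehicle or 1 of 3 histone deacetylase inhibitors, and took the PFC, nucleus accumbens (NAc) and hippocampus (HIP). Both groups were male mice labelled C57BL/6J and, per the study's methods, 11 weeks old. Vehicle mice received a mixture of saline, PEG-400 and DMSO by intraperitoneal injection, and Cpd-60 mice received 45 mg/kg of compound. Tissue was taken 1 h after the last of 10 daily injections in both groups. Each array held RNA pooled from 2 mice, so the 3 arrays of a group are called pools 1, 2 and 3. A pool hides the difference between its 2 mice, and the PFC RNA came from whole dissected tissue.

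Histone deacetylases (HDACs) remove acetyl groups from lysines of histones and other proteins, and HDAC1 and HDAC2 do so within the corepressor complexes Sin3, NuRD and CoREST. Inhibitors of these enzymes leave chromatin more acetylated, and some genes are then transcribed more and others less. Cpd-60 is a benzamide-based inhibitor described by the study as selective for HDAC1 and HDAC2. In the PFC, excitatory projection neurons, interneurons and glia express these enzymes.

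Of the named genes outside the glucocorticoid-induced list that rose with all 3 Cpd-60 pools above vehicle, Inmt, Txnip, Myoc and Mfsd2 rose the most, by 0.48 to 0.69 on the log2 scale. Bdnf, the neurotrophin gene, was lower by 0.55 on the log2 scale and was the gene with the smallest p among those named. Per2, Ccnd1 and the mitochondrial genes Mrpl48, Mrpl54 and Ndufs8 fell too. Functions rarely moved together, and most gene groups held 1 called member or none. Values below are quantile-normalized log2 intensities, and a change is the Cpd-60 mean minus the vehicle mean, with n = 3 pools in each group.

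In all, 21513 transcripts were bright enough to test, meaning that some group had a detection p of 0.2 or less on each of its 3 arrays. No transcript passed an adjusted p of 0.05 in the limma fit, where the smallest adjusted p was 0.784. An unadjusted p under 0.05 was found for 1015 transcripts, which is 4.72% of those tested and about the share that a threshold of 0.05 passes. Of these, 233 transcripts also changed by at least 1.2-fold, which was the threshold of the study's methods, and they were 1.08% of those tested. In what follows, "rose" and "fell" mean only that a transcript passed this unadjusted threshold. There were 137 that rose (0.637%) and 96 that fell (0.446%). The test named in the study's methods, analysis of variance with Tukey's HSD, gave 64 and 40 at the same threshold and none after adjustment. With 3 pools against 3, an exact permutation test of 1 transcript cannot give a p below 0.1.

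Of the 14740 genes tested, each by its brightest transcript, 186 were called (1.26%), of which 108 rose (0.733%) and 78 fell (0.529%). All 3 Cpd-60 pools lay outside the range of all 3 vehicle pools, above or below, for 1460 genes, or 9.91% (5.03% above and 4.88% below). Among called transcripts, 178 of 233 had pools that did not overlap, as did 9.85% of all transcripts tested. Of the 137 that rose, 108 had none (4.96% of all transcripts lay above), and of the 96 that fell, 70 had none (4.89% lay below). Outside the glucocorticoid-induced list and unnamed clones, 67 genes rose and 44 genes fell with no overlap.

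The arrays did not all resemble each other by treatment. Median raw intensity was 85.6 to 98.8 over the 6 arrays, and 32.8% to 37.8% of probes were well above background (detection p at most 0.01), with the lowest share in Cpd-60 pool 3. Comparison of the 9 PFC arrays in the fit (vehicle, Cpd-60 and SAHA) showed that vehicle pool 3, Cpd-60 pool 3 and SAHA pool 1 deviated together from their treatment means, with Pearson correlations across transcripts of 0.38 to 0.58. With arrays of other treatments among the remaining 6, these arrays correlated at -0.54 to -0.20. Vehicle and Cpd-60 pools 3 shared the second of 2 BeadChips, but SAHA pool 1 lay on the first. Cpd-60 pools 1 and 2 differed from the vehicle mean alike, with a correlation of 0.52 across transcripts, whereas pool 3 correlated with them at -0.17 and -0.17. All of these differences share 1 vehicle mean, which includes vehicle pool 3. The correlations therefore do not measure agreement of the pools on a Cpd-60 effect. When the 3 arrays that resembled each other were fitted as a block, a choice made after seeing the data, all 233 called transcripts remained called, 169 rose and 126 fell. This block holds 1 array of each treatment and was picked for its shared deviations. It could not move the change itself, so these counts are no test.

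Pool 3 held the smaller differences for many genes. For transcripts that rose, the median difference from the vehicle mean was 0.32 in pool 1, 0.40 in pool 2 and 0.26 in pool 3. For transcripts that fell it was -0.36, -0.29 and -0.26 in the same order. On the first BeadChip alone (2 vehicle and 2 Cpd-60 pools), the difference had the called sign for 137 of 137 and 96 of 96 transcripts, and on the second (1 pool of each) for 133 of 137 and 91 of 96. Since these pools chose the transcripts, these counts describe them and are no test.

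**Figure D1:**
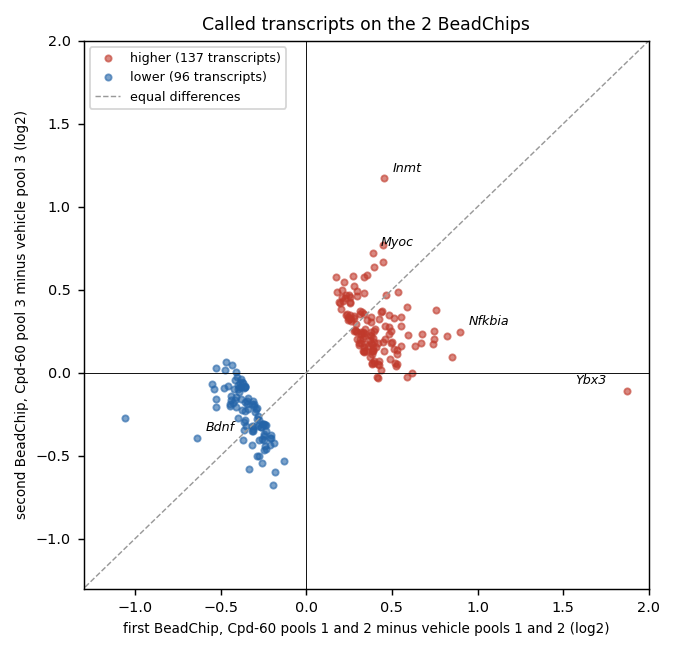
Each point is 1 of the 233 called transcripts, with the log2 difference between Cpd-60 and vehicle on the first BeadChip (2 pools each) on the x axis and on the second (1 pool each) on the y axis. Nfkbia and Ybx3 differed more on the first BeadChip, Inmt and Myoc more on the second, and 133 of 137 rises and 91 of 96 falls had the called sign on the second.

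Leaving out Cpd-60 pool 3 raised the counts to 534 transcripts that rose and 517 that fell, and 5 transcripts then passed an adjusted p of 0.05 in limma. They were Nfkbia, Bdnf, Mfsd2, Ddit4 and Txnip, with adjusted p of 0.00885, 0.0211, 0.0239, 0.0239 and 0.0360. In that fit both remaining Cpd-60 pools lay on the first BeadChip, while vehicle pool 3 lay on the second. Treatment and BeadChip were then partly mixed, so that fit cannot fully tell them apart. Without vehicle pool 3, 204 rose and 223 fell, and without Cpd-60 pool 2, 166 rose and 189 fell, with none past adjustment in either.

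Inmt, indolethylamine N-methyltransferase, transfers methyl groups to tryptamine and related amines. Its level was 7.77, 7.64 and 7.45 in vehicle pools 1 to 3 and 8.35, 7.97 and 8.62 in Cpd-60 pools 1 to 3. Every Cpd-60 pool lay above every vehicle pool, and the highest was pool 3. The change was 0.69 (SE 0.15, n = 3 pools a group, limma adjusted p = 0.942), or 1.62-fold. A second probe of Inmt rose by 0.36, also without overlap. Of the other 9 tested genes of tetrahydrobiopterin and amine synthesis, none was called, and the list median was 0.03 against 0.00 over all genes tested. The Inmt promoter is shown because its gene led the named rises whose pools did not overlap. It covers 300 bases, 250 before and 50 after the start site, from RefSeq (GRCm38.p6), at chr6:55174941-55175240 on the minus strand. Capitals mark TATAAA, searched on both strands, whose 2 matches begin 80 and 69 bases before the start.

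Inmt: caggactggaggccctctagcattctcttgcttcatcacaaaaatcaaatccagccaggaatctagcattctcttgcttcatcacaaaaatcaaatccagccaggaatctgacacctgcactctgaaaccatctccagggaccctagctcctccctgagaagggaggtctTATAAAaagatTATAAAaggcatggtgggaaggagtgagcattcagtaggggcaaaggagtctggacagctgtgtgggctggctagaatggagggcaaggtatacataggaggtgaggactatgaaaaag

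TATAAA occurred in 13.6% of 32851 mouse promoters of this length, in 9.69% of those of tested genes, and in 8 of 79 and 3 of 60 of those of genes that rose and fell. These matches describe the letters and are not measured sites.

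Txnip encodes thioredoxin-interacting protein, which restrains thioredoxin and glucose uptake. It was at 7.98, 7.90 and 7.86 in the vehicle pools and at 8.60, 8.92 and 8.08 in the Cpd-60 pools. The groups did not overlap, but Cpd-60 pool 3 lay only just above vehicle. Txnip rose by 0.62 (SE 0.17, n = 3 pools a group, limma adjusted p = 0.942), or 1.54-fold, and a second, dimmer probe rose by 0.35. In cultured cells HDAC inhibitors are known to raise Txnip, Cdkn1c and Cdkn1a, among others. Of 6 tested genes of that list, 2 rose, Txnip and Cdkn1c, and none fell, against 0.733% and 0.529% of all genes, with a median of 0.16. Cdkn1c was not called without Cpd-60 pool 1, where its change was 0.26. Neither Txnip nor Cdkn1c was called in the analysis of variance with Tukey's HSD. Txnip has a promoter with a CCAAT motif in each orientation, shown because the gene was among the largest rises, at chr3:96557707-96558006 on the plus strand of GRCm38.p6 (RefSeq). Capitals mark CCAAT or its reverse complement ATTGG, which begin 137 and 102 bases before the start.

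Txnip: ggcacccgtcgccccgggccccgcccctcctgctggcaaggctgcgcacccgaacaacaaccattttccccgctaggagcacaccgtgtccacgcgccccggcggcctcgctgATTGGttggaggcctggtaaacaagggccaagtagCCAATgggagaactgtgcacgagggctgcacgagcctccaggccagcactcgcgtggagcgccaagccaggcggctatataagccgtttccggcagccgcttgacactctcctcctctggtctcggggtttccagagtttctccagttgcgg

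CCAAT, on either strand, was found in 37.4% of all promoters, in 42.7% of those of tested genes, and in 41.8% and 41.7% of those of genes that rose and fell.

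Myoc, a secreted glycoprotein, was at 7.92, 7.86 and 7.57 in vehicle and 8.28, 8.27 and 8.30 in Cpd-60, and rose by 0.50 (SE 0.09, limma adjusted p = 0.802). The Cpd-60 pools agreed within 0.03, while vehicle pool 3 lay below the other vehicle pools. Of its other tested probes, both dimmer, neither was called. Mfsd2, the endothelial transporter of lysophosphatidylcholine lipids, was at 8.35, 8.43 and 8.44 in vehicle and 8.96, 9.09 and 8.60 in Cpd-60, a rise of 0.48. Sat2, of the spermidine/spermine acetyltransferase family, was at 7.39, 7.20 and 7.31 in vehicle and 7.79, 7.68 and 7.68 in Cpd-60, a rise of 0.42, and was even across pools. Tbl1xr1, a subunit of the NCoR corepressor, was at 9.25, 9.31 and 9.34 in vehicle and 9.59, 9.63 and 9.71 in Cpd-60, a rise of 0.34 with all 3 pools above.

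Of the brain endothelial genes on the list, 1 of 17 tested rose (Mfsd2) and 1 fell (Cldn5, a tight junction protein), with a median of 0.00. The shares over all genes were 0.733% and 0.529%. Cldn5 was at 8.94, 8.87 and 8.91 in vehicle and 8.31, 8.77 and 8.82 in Cpd-60. It fell by 0.27 (SE 0.12, limma adjusted p = 1.00), mostly through pool 1, and was not called in 10 of 20 alternative settings. Fewer cells of a type and less RNA per cell cannot be told apart in bulk tissue.

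Cdkn1c, Trp53inp1 and Sesn1 are stress or growth genes that restrain division or growth signalling. Cdkn1c, the cell-cycle inhibitor p57, rose by 0.35, and Trp53inp1, a p53-induced stress protein, by 0.39. Sesn1, sestrin 1, which restrains growth signalling through mTORC1, rose by 0.45. Of 16 tested cell-cycle inhibitors and Gadd45 genes, 3 rose and none fell, against 0.733% and 0.529% of all genes, with a median of 0.01. They were Cdkn1c, Trp53inp1 and Gadd45g, and the pools of Gadd45g overlapped. Trp53inp1 was not called without vehicle pool 2 or Cpd-60 pool 2, at changes of 0.29 and 0.24. Cdkn1c was not called without Cpd-60 pool 1, at 0.26. With Tukey's HSD, none of Trp53inp1, Cdkn1c and Sesn1 was called. Apaf1, the scaffold of the apoptosome, was named after its values were seen: 2 of its 3 probes rose, by 0.38 and 0.48, and the third, at a change of 0.08, was not called. Ccnd1, cyclin D1, the partner of cell-cycle kinases, fell by 0.36 without overlap, and its other probes had changes of -0.20 and -0.11, which were not called.

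Bdnf, brain-derived neurotrophic factor, had a vehicle level of 8.92, 8.90 and 8.93, so that the vehicle pools agreed to 0.03. The Cpd-60 pools were at 8.23, 8.33 and 8.54, all below vehicle and with pool 3 the highest. Bdnf fell by 0.55 (SE 0.08, n = 3 pools a group, limma adjusted p = 0.784), the smallest p of the named genes. The other 4 Bdnf probes were dim, with vehicle means of 6.74 to 7.14 against 8.92 for the called probe, and changed by -0.04 to 0.03, so that only 1 probe carries this fall. Of 13 tested neurotrophin signalling genes, Bdnf was the only one called, whereas 1.26% of all genes were called and 0.529% fell. Ntrk2, its receptor, was at a change of 0.00, and the list median was -0.03.

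Ciart, listed on the array as Gm129 and known as a repressor of the circadian clock, was named after its values were seen. Its brightest probe was at 7.8, 8.0 and 7.7 in vehicle and 8.5, 8.8 and 8.0 in Cpd-60, with pool 3 a little below vehicle pool 2. All 3 of its probes rose, by 0.58, 0.53 and 0.44, and the last 2 had no overlap between groups. Per2, a core clock repressor, was at 9.38, 9.37 and 9.25 in vehicle and 8.90, 8.75 and 9.18 in Cpd-60, and fell by 0.39 (SE 0.10, limma adjusted p = 0.942). Pool 3 lay only just below vehicle. A second Per2 probe had a change of -0.26, just short of 1.2-fold, and the third had a change of 0.04, and neither was called. Of 18 tested clock genes, Ciart alone rose and Per2 alone fell, against 0.733% and 0.529% of all genes, with a median of 0.05. Per1, a clock repressor, and Dbp, a clock output, were at changes of 0.11 and 0.18 and were not called. The Ciart promoter is shown because all of its probes rose: chr3:95882179-95882478 on the minus strand of GRCm38.p6 (RefSeq). Capitals mark CACGTG, the E-box read by clock activators, whose 3 matches begin 116, 58 and 44 bases before the start.

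Ciart: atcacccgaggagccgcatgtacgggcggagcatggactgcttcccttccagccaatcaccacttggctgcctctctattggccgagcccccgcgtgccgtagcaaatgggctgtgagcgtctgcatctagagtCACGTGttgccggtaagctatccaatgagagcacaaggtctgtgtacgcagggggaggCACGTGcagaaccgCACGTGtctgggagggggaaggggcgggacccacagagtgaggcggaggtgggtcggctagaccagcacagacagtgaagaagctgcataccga

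The E-box was found in 7.15% of all promoters, in 11.4% of those of tested genes, and in 12.7% and 10.0% of those of genes that rose and fell. Per2 has no promoter in the table used here.

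**Figure D2:**
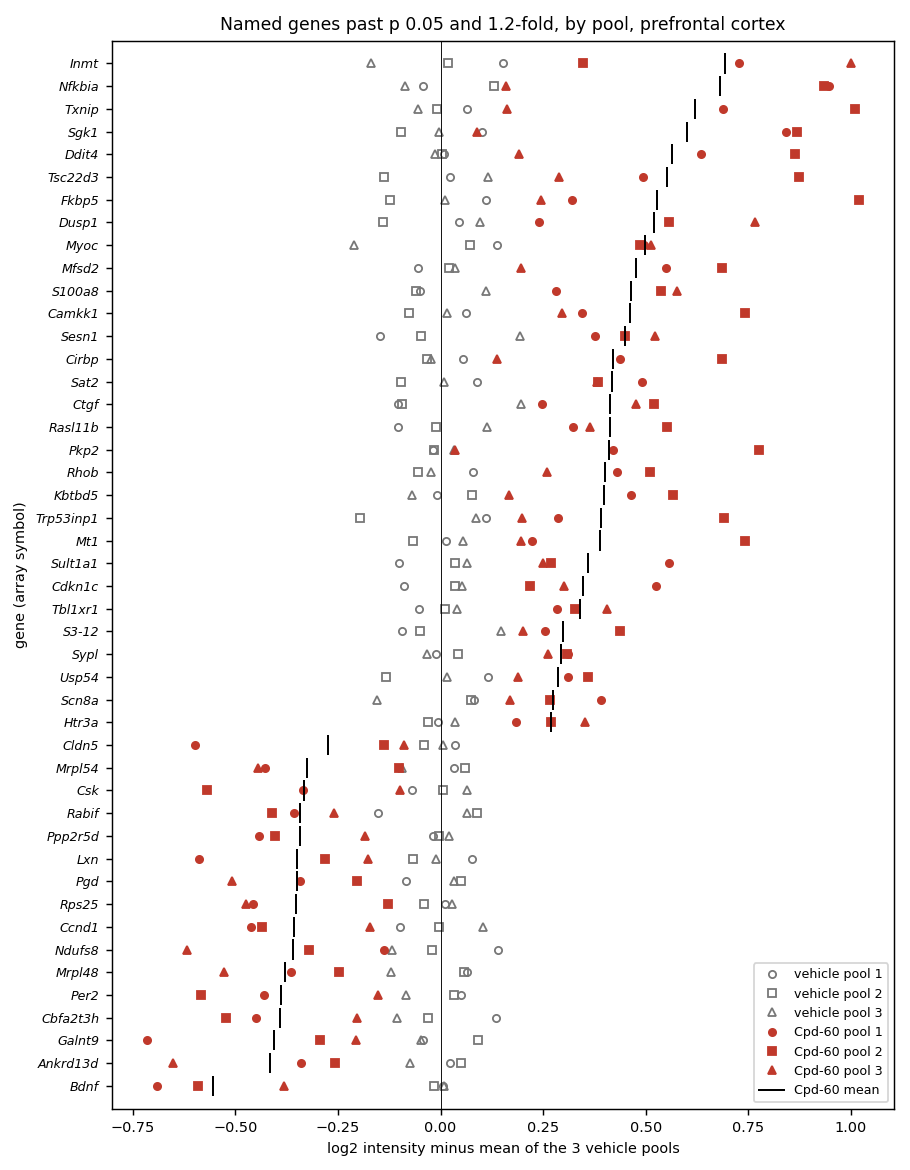
Log2 intensity of each pool minus the mean of the 3 vehicle pools, for 46 named genes that rose or fell (x axis, log2; y axis, genes by their change), with vehicle pools open and grey, Cpd-60 pools filled and red, and black ticks the Cpd-60 mean. Pool 3 had the smallest Cpd-60 difference for 20 of 30 rises and 10 of 16 falls, and Sgk1 is the only gene shown whose groups overlapped.

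The named genes were the largest changes by rule and up to 4 from each gene list. There were 56, of which 31 rose and 16 fell, and 45 of these 47 were well above background on all 6 arrays. Where a called gene had other tested probes (33 probes of 19 genes), 6 were called in the same direction and 26 had the same sign. Of the 25 of these that were well above background on all arrays, 19 had the same sign. Over all transcripts tested, 1.08% were called. Because these probes were read on the pools that chose the genes, the counts describe them and are no test. Ppp2r5d, a regulatory subunit of phosphatase 2A, fell by 0.34 on its brightest probe, whereas its other 5 probes had changes of -0.04 to 0.10.

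Among signalling and neuronal genes that rose, Camkk1, a kinase upstream of calcium/calmodulin kinases, was at 8.79, 8.65 and 8.74 in vehicle and 9.07, 9.47 and 9.02 in Cpd-60, a rise of 0.46. Rasl11b, a Ras-like GTPase, rose by 0.41, and its second probe by 0.47, both without overlap. Ctgf, a matricellular protein that marks layer 6b neurons in cortex, rose by 0.41, and its second probe by 0.40. Rhob, a small GTPase of the actin cytoskeleton, rose by 0.40. Scn8a, the sodium channel Nav1.6, rose by 0.28, though its second probe changed by -0.02, and Htr3a, a subunit of the serotonin-gated 5-HT3 channel, rose by 0.27. The potassium channel subunit Kcnv1 fell by 0.27 with overlapping pools. Scn8a was not called without vehicle pool 3 or Cpd-60 pool 1 (changes of 0.20 and 0.22), nor Htr3a without vehicle pool 2 or Cpd-60 pool 3 (0.25 and 0.23). Of 94 voltage-gated channel genes, only Scn8a rose and only Kcnv1 fell, against 0.733% and 0.529% of all genes, and the median was 0.01.

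Other rises included Cirbp, the cold-inducible RNA-binding protein, by 0.42. S100a8, a calcium-binding protein of neutrophils, rose by 0.47, at levels of 6.70, 6.68 and 6.86 in vehicle and 7.03, 7.28 and 7.32 in Cpd-60, and was well above background on 4 of 6 arrays. Kbtbd5, a kelch-domain protein also named Klhl40, rose by 0.40. Pkp2, a desmosomal protein, rose by 0.41, but Cpd-60 pool 3 and vehicle pool 3 were both at 7.10. Sypl, a relative of synaptophysin, rose by 0.29, and Usp54, of the ubiquitin peptidase family, by 0.29. Pkp2 was not called without Cpd-60 pool 2, at a change of 0.23, nor Usp54 without vehicle pool 2 or Cpd-60 pool 2, at 0.22 and 0.25.

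Among the falls, the mitochondrial ribosome genes Mrpl48 and Mrpl54 fell by 0.38 and 0.32, and Ndufs8, a subunit of respiratory complex I, fell by 0.36. Mrpl48 was at 10.10, 10.09 and 9.91 in vehicle and 9.67, 9.78 and 9.50 in Cpd-60, below in every pool, and its other 2 probes were lower by 0.24 and 0.19 without being called. Of 70 oxidative phosphorylation genes tested, Ndufs8 was the 1 called, against 1.26% of all genes, and their median was -0.02. Ndufs8 was not called without vehicle pool 1 or Cpd-60 pool 3, at changes of -0.29 and -0.23. Rps25, a small ribosomal subunit protein, fell by 0.35 as the 1 called of 58 ribosomal protein genes, whose median was 0.01.

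Pgd, an enzyme of the pentose phosphate pathway, was at 8.42, 8.55 and 8.53 in vehicle and 8.16, 8.30 and 7.99 in Cpd-60, a fall of 0.35. Ankrd13d, a ubiquitin-binding ankyrin protein, fell by 0.42, with pool 3 the lowest. Galnt9, an enzyme of mucin-type glycosylation, fell by 0.40, and Cbfa2t3h, a corepressor of the ETO family, by 0.39. Lxn, an inhibitor of carboxypeptidases, fell by 0.35, Rabif, a chaperone of Rab proteins, by 0.34 and Csk, the kinase that restrains Src, by 0.33. On the brightest probes these falls had no overlap. They were spread over functions, and no gene list had more than 1 member that fell. Second probes of Rabif, Galnt9 and Cbfa2t3h changed by 0.06, -0.10 and -0.06, with overlap, and were not called. Without Cpd-60 pool 1, Galnt9 and Lxn were not called, at changes of -0.25 and -0.23. Csk was not called without any 1 of vehicle pools 2 and 3 and Cpd-60 pools 1 and 2, at changes of -0.33 to -0.22.

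Of 22 tested class I HDACs and corepressors, 1 rose (Tbl1xr1, of the NCoR complex) and none fell, with a median of 0.03. Of all genes, 0.733% rose and 0.529% fell. Hdac2 was at 8.24, 8.31 and 8.99 in vehicle and 8.29, 8.21 and 9.20 in Cpd-60, a change of 0.05 (SE 0.25), with both pools 3 high. Hdac3 was at a change of 0.04, and Hdac1 was not analysed here. None of the 9 class II and IV HDAC and Mef2 genes, and none of 29 acetyltransferase, reader and DNA methylation genes, was called. Of 43 histone genes none was called, 9 had a change above 0, and the median was -0.11, against 0.00 over all genes. The histone median was -0.14, -0.06 and -0.04 in Cpd-60 pools 1, 2 and 3, but on the second BeadChip alone it was 0.03. Histone genes are near-identical copies whose probes can share targets.

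Over the 45 gene lists written for this comparison, 23 had no call, 14 had 1 and 6 had 2. Besides the glucocorticoid-induced list, the cell-cycle list was the only one with more than 2. Of all genes tested, 1.26% were called. Only 7 lists had a median of 0.1 or more in either direction. The 20 immediate early genes held 1 call, Dusp1, at a median of -0.01, and varied between pools, with medians of -0.17, 0.03 and 0.10. Dusp1 rose by 0.52 and is also on the glucocorticoid-induced list. No gene was called among 31 glutamate receptors and scaffolds, 8 GABA-A receptor subunits, 46 protocadherins, neurexins and neuroligins, 19 cholesterol genes, 18 glycolysis genes, 21 heat shock chaperones, 19 unfolded protein response genes, 33 proteasome subunits or 22 genes of FoxO, Akt and GSK3 signalling. The median of the heat shock list was -0.10.

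**Figure D3:**
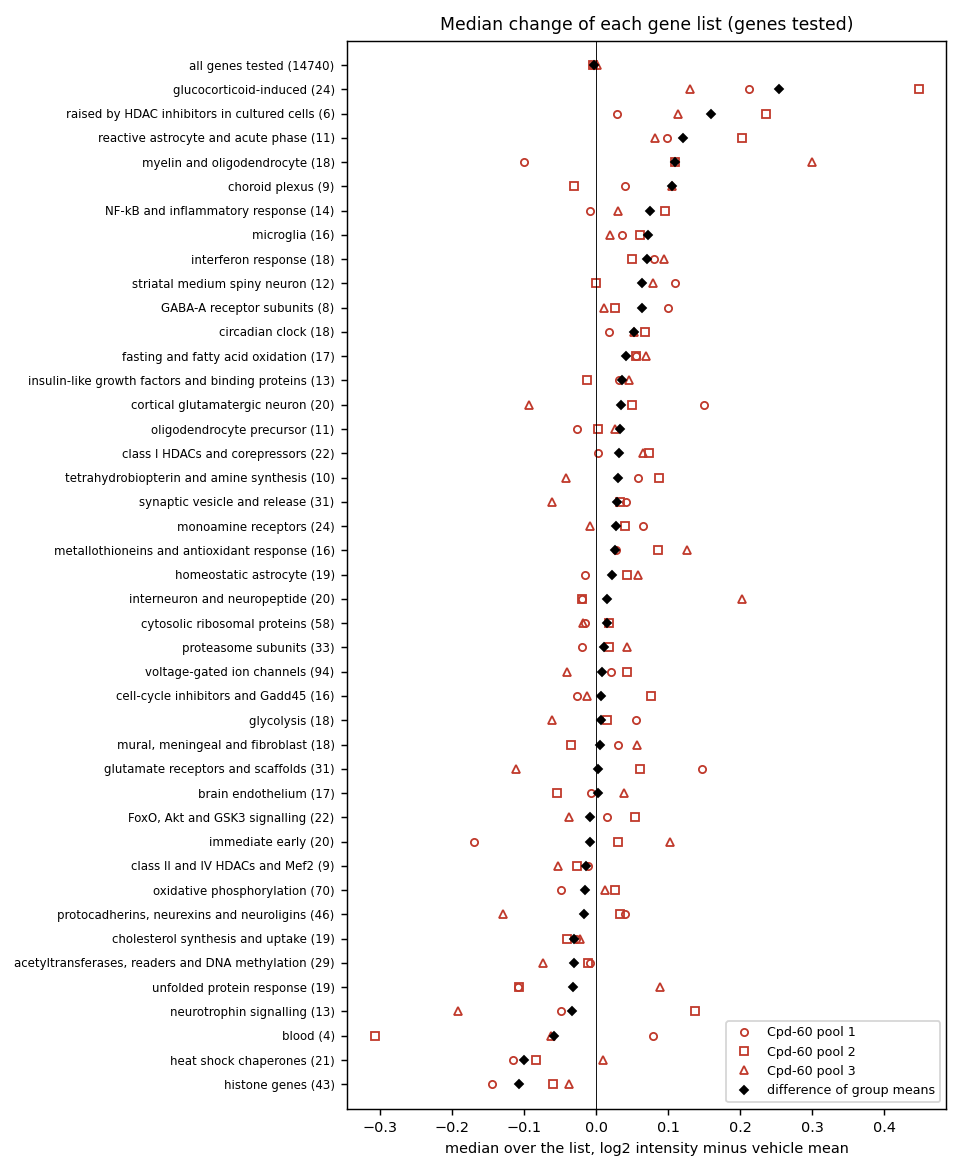
Median log2 difference from the vehicle mean over each of 42 gene lists and over all genes tested (x axis, log2; y axis, lists with the number of genes tested), for each Cpd-60 pool (red symbols) and for the difference of group means (black diamonds). The glucocorticoid-induced list lies highest at 0.25, and the histone list lowest at -0.11.

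The glucocorticoid-induced list set the scale: 10 of 24 tested genes rose and none fell, against 0.733% and 0.529% of all genes, and the median was 0.25, or 0.21, 0.45 and 0.13 in pools 1, 2 and 3. Nfkbia, Ddit4, Tsc22d3 and Fkbp5 rose by 0.68, 0.56, 0.55 and 0.53, and Sgk1 rose by 0.60 with overlapping pools. Without Cpd-60 pool 2 the change of Fkbp5 was 0.28, and it was still called. With Tukey's HSD, Fkbp5, Sgk1 and Nfkbia were not called. Outside that list, the NF-kB and inflammatory list had 1 call of 14, which was again Nfkbia, the inhibitor of NF-kB. Of 18 interferon response genes, 1 rose, Ifitm3, by 0.43 with overlapping pools. Ifitm1, chosen after its values were seen, rose by 0.31 without overlap. Of 16 metallothionein and antioxidant genes, 1 rose, Mt1, by 0.39. Mt1 was not called without Cpd-60 pool 2, where its change was 0.21, nor with Tukey's HSD.

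Markers of the cell types that PFC tissue can hold were set beside these results. None of 18 myelin, 11 oligodendrocyte precursor, 16 microglia, 19 homeostatic astrocyte, 11 reactive astrocyte, 18 mural and meningeal, 9 choroid plexus or 4 blood genes was called. The myelin median was -0.10, 0.11 and 0.30 in Cpd-60 pools 1 to 3, and the summed myelin level was 13367 to 15686 in vehicle and 13239 to 18252 in Cpd-60 (linear intensity). The choroid plexus marker Ttr was high in both pools 3, at 9.25 in vehicle and 9.51 in Cpd-60, against 7.41 to 8.13 in the other pools. Slc17a7, the vesicular glutamate transporter of excitatory neurons, was low in both pools 3, at 11.08 and 10.92, against 11.57 to 11.83 elsewhere. Gad1, the enzyme of GABA synthesis, was high in both, at 10.32 and 10.49, against 9.52 to 9.91 elsewhere. These are single markers. In the cortical list, Mef2c and Ctgf were instead higher in vehicle pool 3, at 12.11 and 9.14, than in the other vehicle pools. The cortical glutamatergic median was 0.15, 0.05 and -0.09 in Cpd-60 pools 1 to 3. In the same order it was -0.02, -0.02 and 0.20 for the interneuron list and 0.04, -0.03 and 0.10 for choroid plexus. Of the cortical glutamatergic list, 1 of 20 rose (Ctgf), and of the interneuron list 1 of 20 rose (Htr3a) and 1 fell (Cort, cortistatin). Over all genes the shares were 0.733% and 0.529%. The part of tissue makeup in the changes was not tested. For the label, 17 of 20 cortical markers were higher in vehicle PFC than in vehicle NAc, by a median of 1.03, and 12 of 12 striatal markers were lower, with a median difference of -2.90.

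The genes named in the PFC were also set beside the NAc and HIP of the same pools of mice. On 18610 transcripts tested in all 3 regions, limma gave no transcript whose PFC change differed from the mean of the NAc and HIP changes at an adjusted p of 0.05, and 302 (1.62%) passed an unadjusted p of 0.05. Myoc changed by 0.50 in the PFC, by -0.09 in the NAc and by 0.10 in the HIP, and the difference was 0.49 (SE 0.12, limma adjusted p = 1.00), past 0.05 only before adjustment. Pgd, at -0.35, 0.15 and -0.02 in that order, and Ankrd13d, at -0.42, 0.01 and -0.07, also passed the unadjusted test. So did Inmt, at 0.69, 0.09 and 0.29, Kbtbd5, at 0.40, -0.05 and 0.15, Bdnf, at -0.55, -0.20 and -0.25, and Sat2 and Galnt9. These were 8 of the 47 named genes called in the PFC. Txnip (0.62, 0.64 and 0.34), Mfsd2 (0.48, 0.54 and 0.55) and Cirbp (0.42, 0.53 and 0.44) were not distinguishable between regions in that test. Since these genes were picked for their PFC change, a larger value there describes the choice as well. Agxt2l1, a phospholyase gene that the study named, was at 0.36 in the PFC, where its pools overlapped and it was not called (limma adjusted p = 1.00), and at 0.83 and 0.54 in the NAc and HIP.

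**Figure D4:**
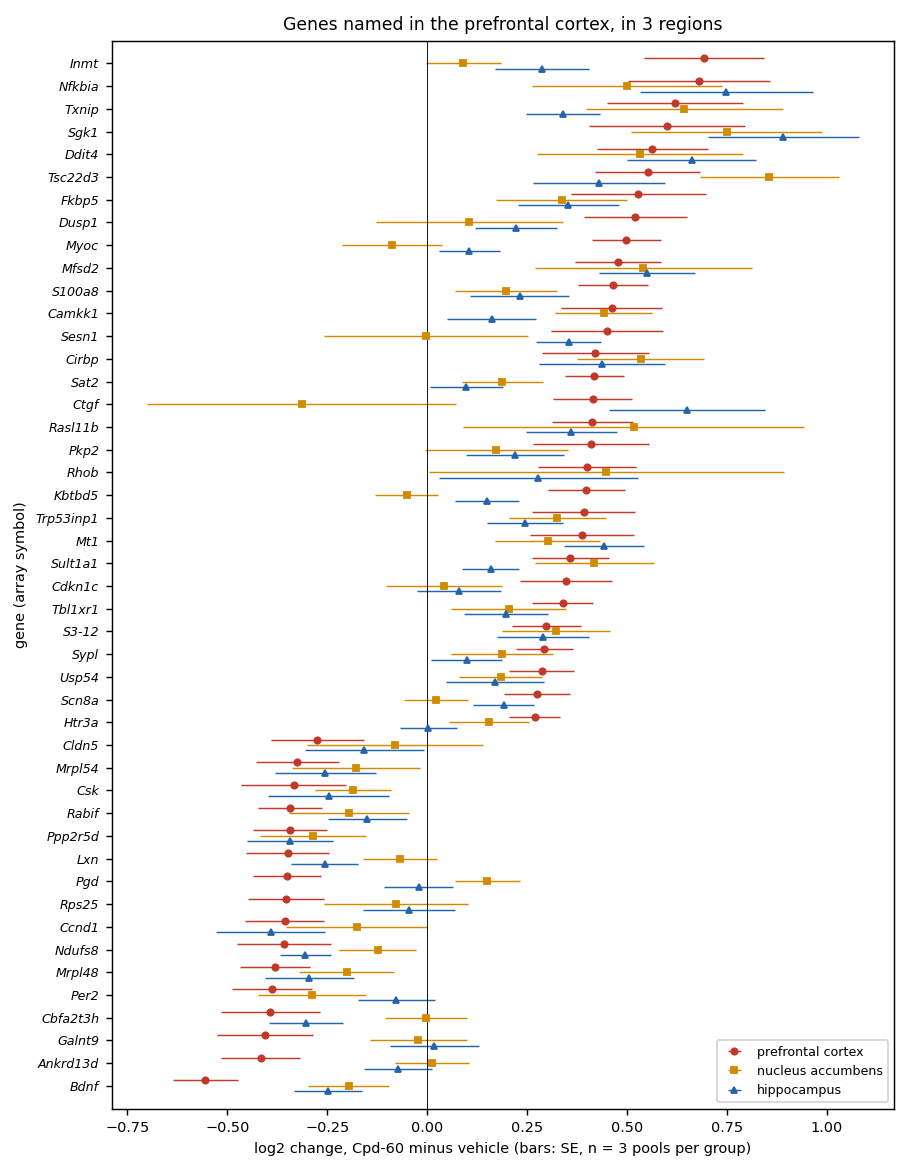
Log2 change between Cpd-60 and vehicle with its SE (n = 3 pools a group) in the PFC (red circles), NAc (orange squares) and HIP (blue triangles), on the x axis, for 46 named genes that rose or fell in the PFC. Inmt, Myoc and Kbtbd5 lie further from 0 in the PFC than in the other regions, and Txnip, Mfsd2 and Cirbp lie above 0 in all 3.

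SAHA, an HDAC inhibitor given at 25 mg/kg against the 45 mg/kg of Cpd-60, shared the vehicle arrays. Its changes from vehicle in the PFC were -0.14 for Inmt, -0.14 for Txnip, 0.06 for Myoc, 0.03 for Mfsd2 and -0.08 for Bdnf, beside 0.69, 0.62, 0.50, 0.48 and -0.55 for Cpd-60. Of the 47 genes named and called with Cpd-60, 4 passed an unadjusted limma p of 0.05 with SAHA. Their changes were 0.31 for Dusp1, -0.27 for Rps25, -0.23 for Mrpl48 and -0.21 for Rabif. The share of all transcripts passing this with SAHA is not given here. The vehicle arrays that helped choose these genes are in both comparisons, so the count is no test. The doses differ.

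Some genes were highest in Cpd-60 pool 2. Lcn2, a secreted protein of the acute phase, was at 6.76, 6.75 and 6.58 in vehicle and 6.90, 9.77 and 7.17 in Cpd-60, where pool 2 stood 3.07 above the vehicle mean. It was not called (change 1.25, SE 0.57, limma adjusted p = 1.00). Lcn2 is also on the glucocorticoid-induced list, whose median was 0.21, 0.45 and 0.13 in Cpd-60 pools 1, 2 and 3. Ybx3, a cold-shock-domain protein, was at 8.46, 8.29 and 8.31 in vehicle and 9.36, 11.13 and 8.20 in Cpd-60, and rose by 1.21 (SE 0.54, limma adjusted p = 1.00), with pool 1 at 1.01 and pool 2 at 2.78 above the vehicle mean and pool 3 below vehicle. The dimmer Ybx3 probes, with vehicle means of 7.21 and 6.71, changed by 0.10 and -0.05 and were not called. The brightest Ybx3 probe alone carries this rise. Cdkn1a, the cell-cycle inhibitor p21, was at 8.29, 8.24 and 8.23 in vehicle and 8.20, 9.09 and 8.13 in Cpd-60, and was not called. Its other probes were also highest in pool 2. Pool 2 stood at least 2-fold above the vehicle mean for 5 of 14740 genes, pool 1 for 2 and pool 3 for 2. These genes were chosen after their values were seen.

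**Figure D5:**
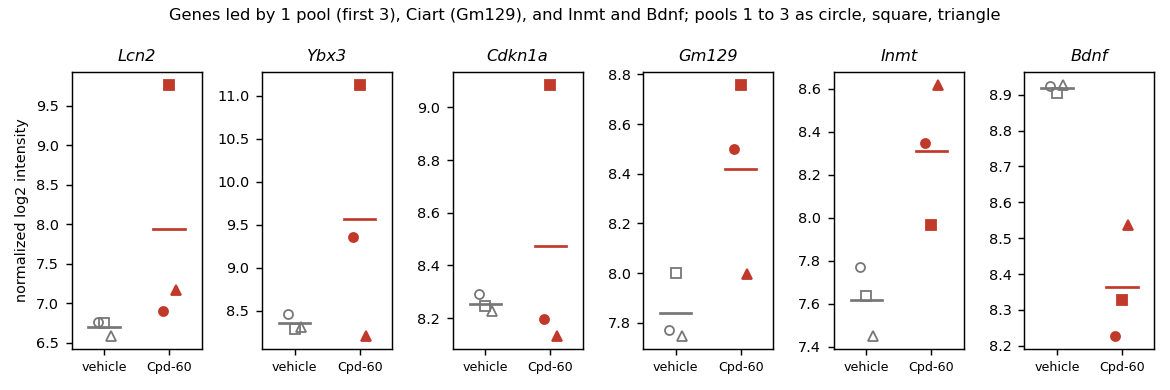
Normalized log2 intensity (y axis, separate scale per gene) of vehicle pools (grey, open) and Cpd-60 pools (red, filled) for Lcn2, Ybx3, Cdkn1a, Gm129 (Ciart), Inmt and Bdnf, with pools 1 to 3 as circle, square and triangle and bars the group means. Pool 2 is the highest for Lcn2, Ybx3 and Cdkn1a, and all 3 Cpd-60 pools leave the vehicle range for Inmt and Bdnf.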

How the data were processed

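RNA pools from 2 mice each were hybridised to Illumina MouseWG-6 arrays. The deposited table holds raw probe intensity, which the authors had not normalized, and a detection p-value per probe from the scanner software. It covers 36 arrays. The authors' own analysis used quantile normalization in GeneSpring with baseline transformation. No other values were used.

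For this report, R 4.3.3 and limma 3.58.1 were used. After a floor of 1, quantile normalization was run over 27 arrays (3 regions with vehicle, SAHA or Cpd-60) and log2 was taken. CI-994 arrays were left out of the normalization and of the fit, and used as an alternative only. A transcript was kept where some group had a detection p of 0.2 or less on each of its 3 arrays, and the 9 PFC arrays were fitted together, so that SAHA shared the estimate of spread. P-values were adjusted by Benjamini-Hochberg over all 21513 transcripts. A call needed a change of 1.2-fold or more and p below 0.05 before adjustment. The regions were compared with the pool as a random block. Named genes were the 15 largest rises and 15 largest falls with no overlap outside the glucocorticoid-induced list and clones, up to 4 from each list, and genes the study named. Of 30869 array symbols, 21962 matched RefSeq names. The fit was tested on simulated data. Members and lists were chosen with earlier results of these data known.

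For pool numbers, deviations from the group mean correlated by 0.40, 0.18 and 0.58 between same-numbered vehicle and Cpd-60 pools, all over 0.1, and the numbers come from the sample titles. Differently numbered pools 1 and 2 correlated by 0.40 and 0.19, and pool 3 of either group with pools 1 and 2 of the other by -0.54 to -0.25. The number of arrays limits the precision. A pool labelled mouse 3+4 in its title carries 1+2 in its description, and the title was used. Whether the pools were separate cages or days is not given in the sources used here, so p-values rest on a spread between pools that may be partly technical. That spread includes the SAHA pools, and limma drew it toward the spread of all transcripts. Alternatives varied the normalization, arrays, filter, blocks, test and pools left out. In addition, 1 named gene and 1 gene list are not reported here.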

Additional observations from a re-analysis of the deposited data

How the results depend on the processing

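The 233 called transcripts kept their sign under every alternative in which they were tested. The blocks, the filters and leaving out SAHA cannot move the change itself. The other alternatives reuse pools that chose the transcripts, so this describes them and is no test. With neqc normalization 542 rose and 544 fell, none past adjustment, and 203 of the 233 were kept. On the first BeadChip only, 538 rose, 456 fell and 11 passed adjustment. Tukey's HSD gave 64 and 40, keeping 104 of the 233. With it 20 named genes lost their call, among them Txnip, Camkk1, Sesn1, Cirbp and Rhob. Leaving out 1 pool in turn gave 128 to 534 rises, 87 to 517 falls and 0 to 5 past adjustment, the highest of each without Cpd-60 pool 3. In these fits, a group left with 2 pools was assumed to vary like the others. Without Cpd-60 pool 3 or vehicle pool 3, treatment and BeadChip were also partly mixed. The cause of these changes was not tested. The block on the replicate number (the pairing) gave 145 rises, 105 falls and 0 past adjustment, kept 230 of the 233 and changed no call of a named gene. The region difference had 0 transcripts past adjustment in all 11 alternatives. Of 47 named called genes, 21 passed in all 20 alternatives and 26 missed a threshold in at least 1, among them Cldn5 in 10 and Csk in 5. No called gene changed direction in these alternatives, which is no test for the same reasons. The glucocorticoid-induced median was 0.46 under neqc. Signal over background limits dim probes: S100a8 was well above background on 4 of 6 arrays, and the other Bdnf probes were dim.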
